A study of Mus musculus with 55 samples.

Results

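The genes described here are 10 markers of heart muscle, Myh6, Myh7, Tnnt2, Actc1, Nppa, Myl2, Myl4, Myl7, Ttn and Nkx2-5, chosen as a list from 24421 genes whose transcripts were counted by parental allele in mouse embryos. The question was how strongly these genes were transcribed in each embryo, and from which parental genome. The 3 embryos came from oocytes of females homozygous for ADD-domain mutations of both DNA methyltransferase proteins, DNMT3A and its cofactor DNMT3L (Dnmt3aADA/ADA + Dnmt3LD124A/D124A in the labels), fertilized in vitro with wild-type spermatozoa of the JF1 strain. Each embryo therefore carried the mutations on the maternal allele and wild-type genes on the paternal allele. The mothers of the oocytes were largely C57BL/6J, 2-cell embryos were carried by pseudo-pregnant ICR females, and embryos and placentas were taken from the uteri on embryonic day 9 in the labels, day 9.5 in the methods. The study describes severe defects in all its embryos from oocytes with both mutations at about this stage. Whether the embryo samples were free of placenta and uterus is not stated. Females were 11 to 18 weeks old when eggs were taken for fertilization. The only other libraries used were 52 single oocytes: 18 wild-type fully grown oocytes (FGOs), 8 FGOs of Dnmt3L-ADD females, 8 of Dnmt3a-ADD females, 8 of double mutant females and 10 wild-type oocytes at metaphase II (MII), with FGOs from females of 10 to 12 weeks.

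Heart muscle contracts through sarcomeres, in which thick filaments of myosin slide along thin filaments of actin, and titin spans from the Z-disc to the middle of the sarcomere. The heart is the first organ to function in the mouse embryo, and in normal development it is beating by this stage. Atrial and ventricular muscle express partly different myosin chains, and transcription factors such as NKX2-5, GATA4 and SRF act on the genes of the contractile proteins.

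A read entered the embryo tables only where it covered a difference between the C57BL/6J and JF1 genomes, so that the maternal and the paternal count of a gene add up to its allelic count. The embryos held 7534598, 8547786 and 6998944 allelic counts, of which 52.7%, 60.5% and 51.8% were maternal. The level of a gene is given here as its summed allelic count per 1000000 allelic counts of the embryo (CPM). Because genes differ in how many such positions they hold, levels are compared between embryos and never between genes, and a gene at 0 is not shown to be silent. Each embryo is 1 sample, no control embryo was analysed here, and intervals given for 1 embryo cover counting error only. Embryo 2 stood apart in the origin of its RNA: its median maternal share over autosomal genes was 58.8%, against 51.4% in embryo 1 and 51.3% in embryo 3, and it reached 71.2% on chromosome 6 and 71.0% on chromosome 9, neither of which carries any of the 10 genes.

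The heart muscle genes were far higher in embryo 1 than in embryos 2 and 3. Together they took 2358 CPM in embryo 1, 78.3 CPM in embryo 2 and 202 CPM in embryo 3, a mean of 879 ± 1282 (SD, n = 3). The level in embryo 1 was 30.1 times that in embryo 2 (95% counting interval 27.9 to 32.6) and 11.7 times that in embryo 3 (11.1 to 12.3), and embryo 3 was 2.58 times above embryo 2 (2.35 to 2.83). In these bulk samples, fewer heart muscle cells and less RNA per cell cannot be told apart. Of the 10 genes, 9 had a mean of at least 10 allelic counts, and Myh6 did not. The 9 were more than 2-fold higher in embryo 1 than in embryo 2, where 11.4% of 12231 genes with such a mean were, and also than in embryo 3, where 11.2% of genes were. Myh7 and Nppa reached that mean only through embryo 1, so that their place in this count follows from the filter. The other 7 had a mean of at least 10 counts over embryos 2 and 3 alone, and 7 of these 7 were more than 2-fold higher in embryo 1 than in embryo 2 (9.69% of 12162 genes with such a mean) and than in embryo 3 (9.57%). Between embryos 2 and 3, 8 of the 9 could be compared, since Nppa had 1 and 0 counts there, and 7 were more than 2-fold higher in embryo 3, against 5.49% of all genes; for Myh7 this was a bound from 6 counts against 0. Of the genes compared, 0 were more than 2-fold lower in embryo 1 than in embryo 2 (15.7% of all genes), in embryo 1 than in embryo 3 (8.82%) or in embryo 3 than in embryo 2 (12.7%). The standard deviation of the log2 level over the 3 embryos had a median of 2.503 over the 7 genes and 0.33 over the 12162. With paternal counts alone, scaled to the paternal total of the embryo, the sum was 2395 CPM, 105 CPM and 205 CPM, which brought embryo 1 over embryo 2 to 22.9-fold and left 4 genes more than 2-fold higher in embryo 3 than in embryo 2. The alleles of the ICR foster mothers at these positions were not examined, so RNA of a foster mother, if present, could be counted under either parent; its part in paternal counts and in maternal shares was not tested.

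**Figure D1:**
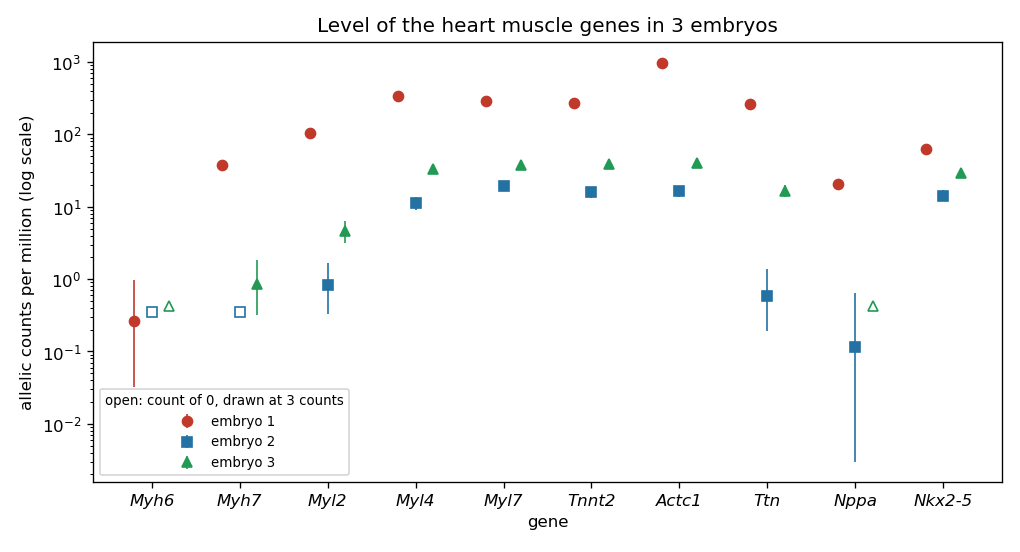
Summed allelic level of each heart muscle gene in the 3 embryos, in CPM on a log scale. Bars are exact 95% Poisson intervals and open symbols mark a count of 0, drawn at the level of 3 counts. Embryo 1 lay above embryos 2 and 3 for 9 genes, and Myh6 had 2 counts in embryo 1 and 0 in the others.

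Actc1 encodes cardiac alpha-actin, the main actin of the thin filament of embryonic heart muscle. It lies on the minus strand of chromosome 2 at 114047282 to 114053548 (mm10). It was at 966 CPM in embryo 1, 16.4 CPM in embryo 2 and 40.9 CPM in embryo 3, from 7278, 140 and 286 counts. The difference was 59.0-fold between embryos 1 and 2 (49.9 to 70.2) and 23.6-fold between embryos 1 and 3 (21.0 to 26.7). Its part of the summed counts of the 10 genes was 41.0% in embryo 1, 20.9% in embryo 2 and 20.2% in embryo 3. Tnnt2 encodes cardiac troponin T, which anchors the calcium-sensing troponin complex on the thin filament, and lies on the plus strand of chromosome 1 at 135836354 to 135852260. Its level was 273 CPM, 15.8 CPM and 38.4 CPM in embryos 1, 2 and 3, which is 17.3-fold (14.5 to 20.7) and 7.10-fold (6.25 to 8.10) higher in embryo 1.

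The myosin light chains differed in how far they departed between embryos. Myl7, the regulatory light chain of atrial muscle and of the early heart tube (chromosome 11, 5896637 to 5898782, minus strand), was at 289 CPM in embryo 1, 19.2 CPM in embryo 2 and 38.3 CPM in embryo 3. Myl4, the atrial essential light chain (chromosome 11, 104550663 to 104595753, plus strand), was at 344, 11.1 and 32.7 CPM. Myl2, the regulatory light chain of ventricular muscle (chromosome 5, 122100951 to 122113472, plus strand), was at 104 CPM in embryo 1, with 7 counts or 0.819 CPM in embryo 2 and 32 counts or 4.57 CPM in embryo 3. The excess of embryo 1 over embryo 2 was 15.1-fold for Myl7 (12.9 to 17.8), 30.9-fold for Myl4 (25.2 to 38.4) and 127-fold for Myl2 (61.2 to 316). Over embryo 3 it was 7.56-fold for Myl7 (6.66 to 8.61), 10.5-fold for Myl4 (9.17 to 12.1) and 22.7-fold for Myl2 (15.9 to 33.4), so that the intervals of Myl2 and Myl7 did not overlap in either comparison. For every 100 allelic counts of Myl7 there were 35.9 counts of Myl2 in embryo 1 (Wilson interval 33.0 to 38.9), 4.27 in embryo 2 (2.04 to 8.94) and 11.9 in embryo 3 (8.29 to 17.2).

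The myosin heavy chains lie side by side on the minus strand of chromosome 14. Myh7, the beta heavy chain of the embryonic ventricle (54970688 to 54994634), had 281 counts in embryo 1, 0 in embryo 2 and 6 in embryo 3. These are 37.3 CPM in embryo 1 and 0.857 CPM in embryo 3. Against a floor of 3 counts in embryo 2, which is 0.351 CPM, embryo 1 was at least 106-fold higher, a bound that leaves out the counting error of embryo 1, and it was 43.5-fold higher than embryo 3 (19.7 to 120). Myh6, the alpha heavy chain (54941981 to 54966927), had 2 counts in embryo 1 and 0 in the others, too few for any comparison. The coding sequences of the pair are nearly identical, so reads between them may have been split or dropped, and their values are uncertain to that extent.

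Ttn encodes titin, the giant spring of the sarcomere (chromosome 2, 76703980 to 76982547, minus strand). It was at 261 CPM in embryo 1, 0.585 CPM in embryo 2 and 16.6 CPM in embryo 3, from 1969, 5 and 116 counts. Its excess in embryo 1 was 447-fold over embryo 2 (191 to 1377) and 15.8-fold over embryo 3 (13.1 to 19.2). Ttn also separated the embryos 2 and 3 most, by 28.3-fold (11.8 to 88.9), whereas the ratio of embryo 3 to embryo 2 ranged from 1.996 to 5.58 in the other 6 genes with counts in both and a ratio. Nppa encodes the natriuretic peptide released by atrial and early chamber muscle (chromosome 4, 148000722 to 148002079, plus strand). It had 154 counts in embryo 1, 1 in embryo 2 and 0 in embryo 3, or 20.4 CPM and 0.117 CPM in embryos 1 and 2. The ratio of embryo 1 to embryo 2 was 175 with an interval of 30.9 to 6945, and embryo 1 was at least 47.7-fold higher than a floor of 3 counts (0.429 CPM) in embryo 3.

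Nkx2-5, the homeobox factor that marks heart progenitors and heart muscle (chromosome 17, 26838664 to 26841565, minus strand), departed least. It was at 62.8 CPM in embryo 1, 14.3 CPM in embryo 2 and 29.6 CPM in embryo 3. Embryo 1 was 4.40-fold higher than embryo 2 (3.60 to 5.41) and 2.12-fold higher than embryo 3 (1.80 to 2.51), and both intervals lay below those of the 8 contractile and hormone genes that had a ratio or a lower bound. The factor gave 2.66% of the summed counts of the 10 genes in embryo 1 but 18.2% in embryo 2 (15.5 to 21.3) and 14.6% in embryo 3 (12.9 to 16.6).

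RefSeq promoter windows were found for all 10 genes, 13 windows in build GRCm38.p6. They are shown because these genes moved together between embryos, and 5 motifs known from heart muscle promoters were looked for on both strands in the 250 bases before each start. The CArG box, the DNA element bound by SRF, lay in the windows of 2 genes, Actc1 and Myl7, and in 1.47% of all 32851 windows. The MEF2 site was in the window of Ttn and in 1.69% of all windows. TATAAA was found in windows of Nppa and Myl2 (12.4% of all), AGATAA, a form of the GATA motif, in windows of Tnnt2 and Myl2 (9.99%), and AAGTG, the core of the NKX2-5 motif, in those of Myh6, Myh7, Myl2, Myl4, Myl7 and Nppa (40.7%). Counted by window, as those shares are, matches lay in 2 (CArG box), 1 (MEF2 site), 2 (TATAAA), 2 (AGATAA) and 7 (AAGTG) of 13. A match describes letters only and does not show binding. The 3 windows with the rarest motifs follow, 5′ to 3′ on the strand of the gene, with the motif in capitals. The CArG box begins 47 bases before the RefSeq start of Actc1 and 61 bases before that of Myl7. The MEF2 site begins 166 bases before that of Ttn. RefSeq starts can differ from the gene limits given above, which come from the count annotation. The Actc1 window lies inside those limits. The Myl2 windows with a motif begin at 122092474 and 122092939, ahead of the stated Myl2 limit of 122100951.
Actc1, CArG box, chr2:114052876-114053125, minus strand: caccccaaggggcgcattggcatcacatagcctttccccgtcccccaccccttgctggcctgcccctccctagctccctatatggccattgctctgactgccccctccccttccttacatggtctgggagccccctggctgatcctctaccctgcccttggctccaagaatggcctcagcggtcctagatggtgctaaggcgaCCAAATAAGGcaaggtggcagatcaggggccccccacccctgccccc
Myl7, CArG box, chr11:5898783-5899032, minus strand: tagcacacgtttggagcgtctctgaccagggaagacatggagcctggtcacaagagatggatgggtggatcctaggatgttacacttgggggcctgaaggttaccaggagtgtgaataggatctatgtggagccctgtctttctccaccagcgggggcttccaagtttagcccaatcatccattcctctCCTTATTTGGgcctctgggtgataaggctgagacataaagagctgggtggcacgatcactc
Ttn, MEF2 site, chr2:76982548-76982797, minus strand: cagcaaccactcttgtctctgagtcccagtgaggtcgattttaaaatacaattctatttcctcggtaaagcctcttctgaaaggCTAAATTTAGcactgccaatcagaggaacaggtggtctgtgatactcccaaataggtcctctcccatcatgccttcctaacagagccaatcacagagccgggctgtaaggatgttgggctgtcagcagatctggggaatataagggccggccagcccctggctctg

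Both parental alleles of the 9 heart muscle genes with a measurable share were transcribed, and no member passed the test for a difference between alleles. Maternal shares are given where an embryo had at least 10 allelic counts of the gene, which held for 9 genes in embryo 1, 5 in embryo 2 and 7 in embryo 3. Their medians were 51.2%, 45.9% and 50.7% in embryos 1, 2 and 3, beside 51.7%, 59.4% and 51.6% over all genes with such counts. The allelic counts of all genes were fitted together with edgeR (quasi-likelihood), keeping each embryo as a block, and p-values were adjusted by Benjamini-Hochberg over 10903 genes. In that fit 62 genes (0.569%) were called, 47 with more maternal and 15 with more paternal transcripts. Tnnt2, Actc1, Myl2, Myl4, Myl7, Ttn and Nkx2-5 had enough counts to be tested, with 0 called and 0 at an unadjusted p under 0.05. Their edgeR adjusted p-values ran from 0.409 to 0.972, and DESeq2 called 0 of them as well. Over all genes tested, 1894 had an unadjusted p under 0.05 in the edgeR fit, and DESeq2 called 730. Of the 1894, 1637 had more maternal counts. The median log2 ratio of maternal over paternal counts was 0.24 over all genes tested and 0.04 over the 7 members tested. A log2 ratio of 0 was therefore not the centre of the whole table, and the cause was not tested. Myh6, Myh7 and Nppa did not pass the filter on low counts. With differences in level between embryos taken up by the block, the common biological coefficient of variation left in this fit was 33.2%. That scatter limits what 3 embryos can show.

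Actc1 had shares of 55.0% (Wilson 95% interval 53.8 to 56.1), 51.4% (43.2 to 59.6) and 50.7% (44.9 to 56.4) in embryos 1, 2 and 3, a mean of 52.4 ± 2.29% (SD, n = 3). Tnnt2 was at 45.5% (43.4 to 47.7), 45.2% (37.0 to 53.6) and 48.0% (42.1 to 53.9), a mean of 46.2 ± 1.52% (n = 3). These 2 thin filament genes varied least between embryos, and the fit gave log2 ratios of maternal over paternal counts of 0.14 (SE 0.11, edgeR adjusted p = 0.531) for Actc1 and -0.22 (SE 0.12, edgeR adjusted p = 0.409) for Tnnt2. Actc1 on the main scale leaned maternal, by less than the median of all genes tested (0.24). Its log2 ratio was -0.05 once the alleles were scaled by TMM to the other genes. With that scaling Tnnt2 was at -0.41 (edgeR unadjusted p = 0.0389, adjusted p = 0.261), the only member under 0.05 before adjustment.

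Among the myosin genes, Myl7 was at 47.3%, 56.7% and 45.9% maternal in embryos 1, 2 and 3 (mean 49.96 ± 5.89%, n = 3). Myl4 was at 50.6% in embryo 1 and 45.9% in embryo 3, and at 29.5% in embryo 2 (21.2 to 39.3, from 28 maternal and 67 paternal counts). The interval of embryo 2 lay below the Myl4 intervals of embryos 1 and 3 and below the chromosome 11 median of 56.8% in embryo 2. The 5 genes with a share in embryo 2 lay at or below their chromosome's median there, which ranged from 56.3% to 58.2% on chromosomes 1, 2, 11 and 17, and the interval excluded that median for Tnnt2, Myl4 and Nkx2-5. Myl2 had a share of 55.1% (51.6 to 58.6) in embryo 1 and 62.5% (45.3 to 77.1) in embryo 3. Myh7 had the most uneven share, 73.7% maternal (68.2 to 78.5) in embryo 1, from 207 maternal and 74 paternal counts, and too few counts in the other embryos to say whether it recurs; with no filter beyond 1 count its edgeR adjusted p was 0.497.

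Ttn was at 51.2% (49.0 to 53.4) in embryo 1 and 65.5% (56.5 to 73.5) in embryo 3, intervals that did not overlap. Nppa was at 51.9% (44.1 to 59.7) in embryo 1. Nkx2-5 was at 48.0% (43.5 to 52.5), 45.9% (37.3 to 54.7) and 58.0% (51.2 to 64.5), a mean of 50.6 ± 6.45% (n = 3).

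**Figure D2:**
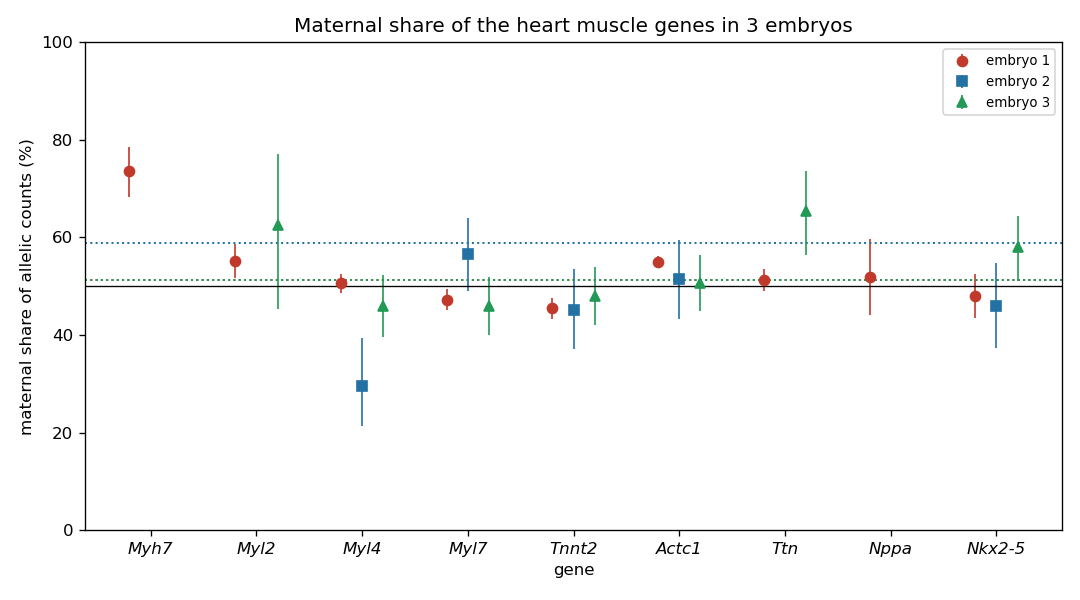
Maternal share of the allelic counts of 9 heart muscle genes, in percent, for embryos with at least 10 allelic counts of the gene. Bars are Wilson 95% intervals, the solid line is 50%, and dotted lines are each embryo's median over autosomal genes (58.8% in embryo 2; those of embryos 1 and 3, 51.4% and 51.3%, overlie each other). Shares stood mostly between 45% and 60%, with Myh7 in embryo 1 and Ttn and Myl2 in embryo 3 above and Myl4 in embryo 2 below.

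Other genes of the heart were described by 4 lists. Of 27 further genes of the sarcomere and Z-disc, 18 had a mean of at least 10 counts. Of these, 15 were more than 2-fold higher in embryo 1 than in embryo 2 and 16 were higher than in embryo 3, with 0 lower in either, and median log2 differences were 3.84 and 3.57 beside 0.03 and 0.00 over all genes. With the mean taken over embryos 2 and 3 alone, 13 and 14 of 16 were higher. Mybpc3, which binds and brakes myosin, was at 236, 1.40 and 13.4 CPM in embryos 1, 2 and 3. Tpm1, a tropomyosin that muscle and other cells both use, was at 532, 487 and 396 CPM, and Pdlim5, a Z-disc adaptor with expression outside muscle, was at 160, 113 and 120 CPM. Those 2 genes were within 1.42-fold between any pair of embryos.

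Of 24 heart transcription factors, 23 could be compared. Of these, 11 were more than 2-fold higher in embryo 1 than in embryo 2 (11.4% of all genes) and 10 than in embryo 3 (11.2%). In each case 1 was lower (15.7% and 8.82% of all genes). With the mean taken over embryos 2 and 3 alone, 10 and 9 of 22 were higher (9.69% and 9.57% of all genes) and 1 was lower in each case. The median log2 differences were 0.93 and 0.98, beside 5.88 and 3.98 for the heart muscle genes, and with the mean taken over embryos 2 and 3 alone they were 0.70 and 0.95 beside 4.95 and 3.39. Gata4, a partner of NKX2-5, was at 113 CPM in embryo 1, 168 CPM in embryo 2 and 120 CPM in embryo 3. Whether these Gata4 counts came from heart cells or from other tissue was not tested. Tbx3, a repressor of the working muscle program in the conduction system that many other embryonic tissues express, was the factor more than 2-fold lower in embryo 1, at 30.9 CPM beside 108 and 88.9 CPM. Smyd1, a methyltransferase needed for sarcomere assembly that marks striated muscle, was at 207, 3.98 and 15.7 CPM, 52.1-fold (37.1 to 75.4) and 13.2-fold (10.9 to 16.1) higher in embryo 1.

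Of 28 genes of calcium handling, channels and junctions, 22 could be compared. Between embryos 1 and 2, 16 were more than 2-fold higher in embryo 1 and 2 were lower (11.4% and 15.7% of all genes). Between embryos 1 and 3, 13 were higher and 1 was lower (11.2% and 8.82% of all genes). With the mean taken over embryos 2 and 3 alone, 14 and 11 of 20 were higher (9.69% and 9.57% of all genes). The lower ones were the potassium channel genes Kcne1 and Kcnj3 beside embryo 2 and Kcnj3 beside embryo 3, named after their values were seen. Atp2a2, the calcium pump of the sarcoplasmic reticulum that most cells also use, was at 786, 598 and 780 CPM in embryos 1, 2 and 3, and Gja1, the gap junction protein connexin 43, was at 345, 312 and 354 CPM. Slc8a1, the sodium-calcium exchanger of early heart muscle, was at 291, 21.4 and 19.1 CPM. Of 19 secreted, metabolic and RNA-binding heart genes, 9 could be compared, with 8 higher in embryo 1 than in embryo 2, 7 higher than in embryo 3 and 0 lower. With the mean taken over embryos 2 and 3 alone, 4 and 3 of 6 were higher and 1 was lower in each case. The shares of all genes are those given for the calcium list. Vcan, a matrix proteoglycan of the cardiac jelly, was at 1046, 324 and 489 CPM, Cdh2, the cadherin of muscle and neural cells, at 250, 50.7 and 92.4 CPM, and Rbm24, a splicing factor of muscle, at 74.6, 30.5 and 64.0 CPM. In the allelic test, 0 genes of the 4 lists were called among the 60 tested, beside 9 at an unadjusted p under 0.05 and 3 called by DESeq2. Over all 10903 genes tested, 1894 had an unadjusted p under 0.05 and DESeq2 called 730.

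**Figure D3:**
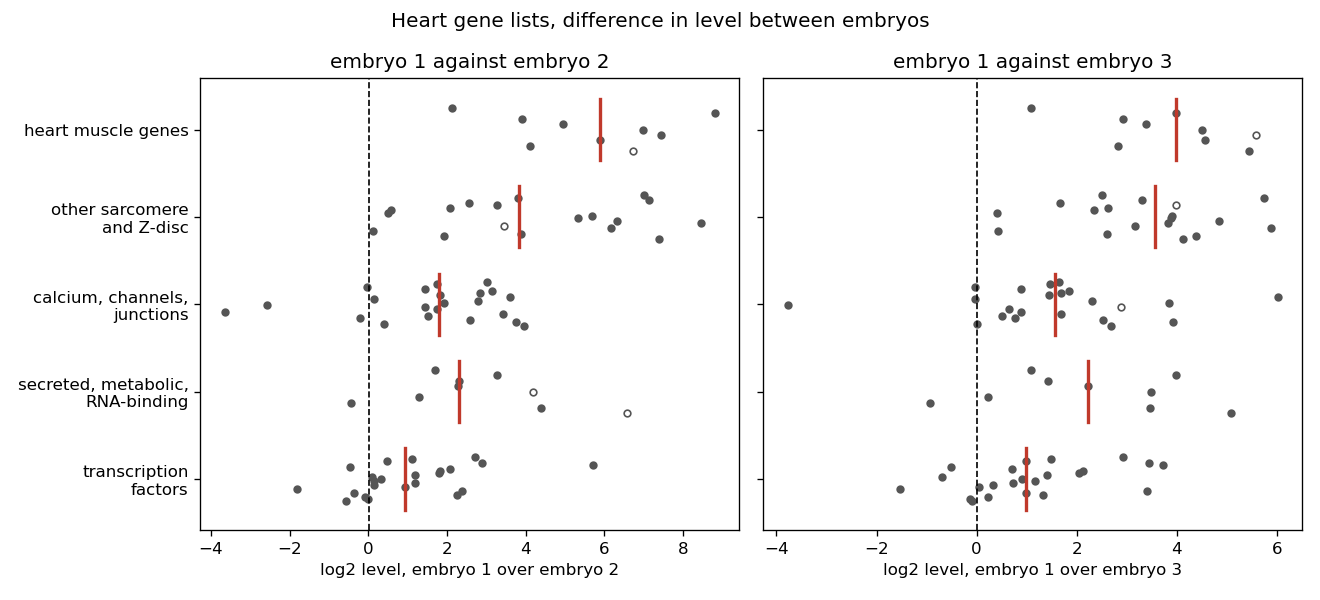
Difference in level between embryo 1 and embryo 2 (left) and between embryo 1 and embryo 3 (right), on a log2 scale, for genes of 5 heart lists with a mean of at least 10 allelic counts. Each point is a gene, open points are bounds set against 3 counts where 1 embryo had a count of 0, red lines are list medians, and the dashed line is the median of all genes. The medians of the heart muscle genes were 5.88 and 3.98 and those of the transcription factors 0.93 and 0.98.

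Markers of other tissues moved between the embryos too. They were counted where their mean over the 3 embryos was at least 10 allelic counts, which a gene can reach through embryo 1 alone. The filter on embryos 2 and 3 was not applied to these lists. Of all genes with such a mean, 11.4% were more than 2-fold higher and 15.7% lower in embryo 1 than in embryo 2. Beside embryo 3 these shares were 11.2% and 8.82%. Primitive blood genes (Hba-x, Hbb-y, Hbb-bh1, Alas2) summed to 3784 CPM in embryo 1, 13.5 CPM in embryo 2 and 4.57 CPM in embryo 3, with 4 of 4 more than 2-fold higher in embryo 1 in both comparisons. The 4 neural tube genes summed to 547, 99.6 and 217 CPM, with 4 and 3 of 4 higher in embryo 1, and the 4 somite genes to 301, 70.0 and 215 CPM, with 4 and 2 of 4 higher. Endothelial and endocardial genes summed to 401, 199 and 115 CPM, with 2 and 4 of 5 higher and Cdh5 at 0 in all embryos. Smooth muscle genes summed to 584, 142 and 134 CPM, with 2 of 4 higher in each comparison and 1, Myh11, lower in embryo 1 than in embryo 2. Acta2 gave 485, 64.8 and 53.6 CPM of the sum. Whether the Acta2 counts came from smooth muscle or from heart muscle was not tested. The 9 skeletal muscle genes summed to 74.5, 13.3 and 9.29 CPM, of which Acta1, also transcribed in heart muscle, gave 65.7, 1.64 and 1.29 CPM. Of the 3 that could be compared, 1 was more than 2-fold higher in embryo 1 than in embryo 2 and 2 than in embryo 3, with 0 lower, and Myog and Chrna1 were at 0 in all embryos. Decidual and uterine genes were highest in embryo 2, at 16.1, 99.1 and 20.7 CPM, with 3 and 2 of 4 more than 2-fold lower in embryo 1 than in embryos 2 and 3, trophoblast genes summed to 0.929, 5.97 and 3.43 CPM, and oocyte genes to at most 1.00 CPM. Hand2 is in the decidual and uterine list and also among the heart transcription factors, so its counts could come from the embryo itself. The part of these tissues in the levels of the heart muscle genes was not tested.

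The genes whose pattern over the 3 embryos was most like that of Tnnt2, Actc1, Myl7 and Nkx2-5, the members with at least 100 allelic counts in every embryo, were sought among 7447 genes with such counts. Likeness was the root mean square difference of centred log2 levels from the median profile of the 4 members, over 3 embryos. The nearest was Col2a1, the collagen of cartilage and notochord, at 298, 25.2 and 64.7 CPM in embryos 1, 2 and 3, with a difference of 0.28. It was followed by Nrcam, a neuronal adhesion molecule (0.43), Mpp2, a membrane scaffold protein (0.43), Plagl1, an imprinted zinc finger factor (0.43), and Crabp1, a retinoic acid binding protein (0.56). Among the 4 members themselves the difference from the profile was 0.06 for Tnnt2 and Myl7, 0.84 for Actc1 and 0.86 for Nkx2-5. The profile is the median of these same 4 genes, so the small and equal values of Tnnt2 and Myl7 follow from how it was made. The 5 genes lay closer to it than Actc1 and Nkx2-5 did, which describes 3 embryos and was not tested. Genes with fewer than 100 counts in any embryo, Ttn and Myl2 among them, could not enter this search.

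Oocytes served as cells that should lack heart muscle transcripts. Each of the 52 libraries held between 7832458 and 23739871 counts, and CPM here is relative to the total of the library. Of the 10 genes, 3 had a median of at least 1 CPM, Ttn, Myl4 and Myh7, and these had counts in all 52 libraries. Nkx2-5 had counts in 3 libraries, Myl7 in 4, Actc1 in 5, Tnnt2 in 8 and Nppa in 10, with at most 7 counts in any of them. Myh6 had up to 9 counts and Myl2 up to 16 counts.

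Ttn ranged from 299 to 1124 CPM over the 52 oocytes, with a median of 420 CPM. Only 2.23% of the 20190 genes with a median above 0 had a higher median CPM, but the exons of Ttn in the count table span 116825 bases. Per kilobase its median level was 3.59 CPM, which 38.7% of those genes exceeded, against 0.686 for Myl4 and 0.310 for Myh7. The lowest, median and highest Ttn values were 299, 465 and 1124 CPM in wild-type FGOs, 333, 418 and 532 CPM in Dnmt3L-ADD FGOs, 333, 397 and 524 CPM in Dnmt3a-ADD FGOs, 385, 469 and 921 CPM in double mutant FGOs and 365, 415 and 440 CPM in MII oocytes, so the groups overlapped. The kit for single oocytes does not keep the strand, and genes antisense to or overlapping Ttn, Myl4 and Myh7 are annotated, so reads of these cannot be told apart. The antisense gene Gm13938 within Ttn was at 0 in all 52 libraries. How reads shared by 2 genes were counted is not given, so that 0 does not show that antisense reads were absent.

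Double mutant FGOs, the cell type from which the embryos arose after maturation, were set against wild-type FGOs in an edgeR quasi-likelihood fit of all 42 FGOs. Of 15726 genes, 260 (1.65%) passed an adjusted p under 0.05 and a fold change over 2, and 0 of the 3 members tested (Ttn, Myl4 and Myh7; the others did not pass the filter on low counts) did, with 2 at an unadjusted p under 0.05 and 0 called by DESeq2. Myl4 was at 5.19 ± 0.981 CPM (SD, n = 8) in double mutant FGOs and 3.49 ± 1.05 CPM (n = 18) in wild-type FGOs, a log2 difference of 0.56 (SE 0.15, edgeR adjusted p = 0.0166), below the 2-fold limit; 12.2% of genes passed the p-value alone. Against wild-type FGO replicates 1 to 8 only, that difference was 0.29 (edgeR adjusted p = 0.581). Ttn differed by -0.04 (SE 0.16, edgeR adjusted p = 0.892) and Myh7 by -1.10 (SE 0.48, edgeR adjusted p = 0.119), where Myh7 ranged from 0.847 to 15.9 CPM among wild-type FGOs and from 0.674 to 5.45 CPM among double mutant FGOs.

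**Figure D4:**
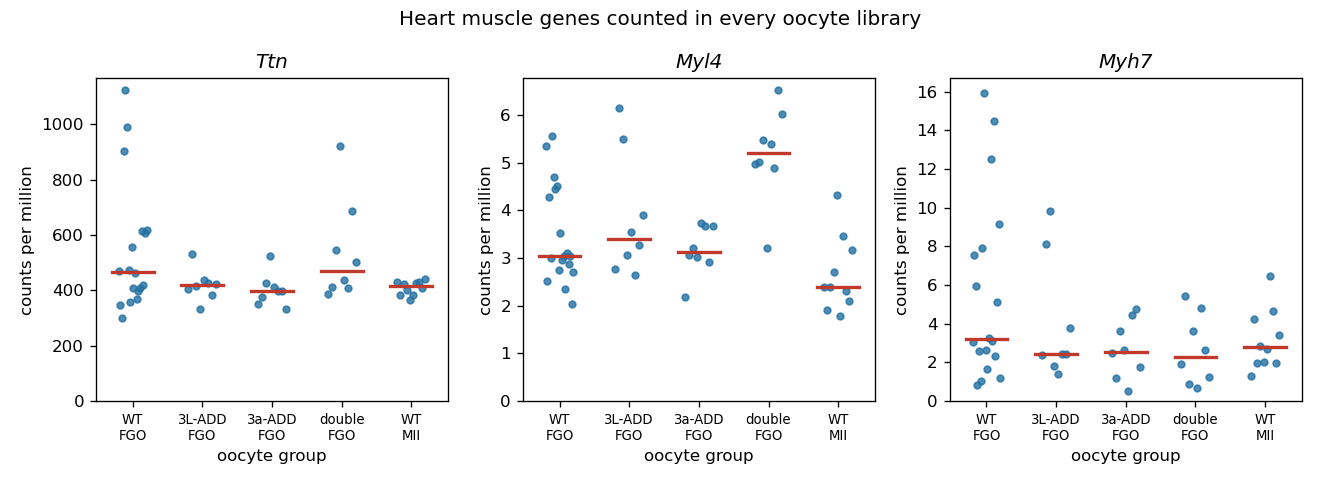
CPM of Ttn, Myl4 and Myh7 in single oocytes of 5 groups (wild-type FGO, n = 18; Dnmt3L-ADD, Dnmt3a-ADD and double mutant FGO, n = 8 each; wild-type MII, n = 10). Points are oocytes and red lines are group medians. Values of the groups overlapped for all 3 genes, with the Myl4 median of double mutant FGOs at 5.20 and that of wild-type FGOs at 3.04.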

How the data were processed

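Reads had been aligned by the authors with STAR (mm10) and assigned to genes by featureCounts and HTSeq. For embryos they deposited raw counts of maternal and of paternal reads per gene, and for single oocytes raw counts per gene. Embryo libraries were made from poly(A) RNA with a directional kit, oocyte libraries with SMART-Seq HT. The tool that assigned reads to alleles, its handling of paralogs, the annotation release and the strand setting are not given in the sources used here. The embryo tables hold 8 columns of values that match no sample in the labels, named as wild type, and these were not used. Members and lists were chosen with earlier results of these data known.

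From the deposited counts, levels and shares were computed as described, with Wilson intervals for shares, exact Poisson intervals for levels and exact conditional intervals for folds (95%, counting error only, since molecular identifiers were not used). A count of 0 was set to 3 counts as a bound. Tests were made with edgeR 4.0.16 in R 4.3.3 (glmQLFit and glmQLFTest, filterByExpr with a minimum count of 10, adjusted p under 0.05). In the allelic fit both alleles of an embryo had the same library size and the embryo was a block, since both columns come from 1 embryo. DESeq2 1.42.0 served as an alternative. Both fits were tested on simulated counts. Nothing says whether oocytes of a group came from separate females, so p-values measure the spread between these libraries. No 2 libraries agreed within sampling noise (lowest chi-square per degree of freedom 39.1 in embryos and 5.02 in oocytes). Genes named outside the 10 were, per list, the 3 with the most allelic counts, and the 5 most like the members; other genes named (single tissue markers, Kcne1 and Kcnj3) were picked after their values were seen. 1 gene of the marker lists is not reported here. Other settings tried were TMM or DESeq2 scaling, no low-count filter, a share minimum of 100 counts, pooled counts, and leaving out each embryo.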

Additional observations from a re-analysis of the deposited data

How the results depend on the processing

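The allelic test called 0 members in every setting, with adjusted p-values of at least 0.249, while the number of genes called over the whole table was 62 and became 106 with TMM scaling, 107 with DESeq2 size factors, 730 with the DESeq2 test, 97 without the filter, 53 with no replicate block and 0 to 381 when an embryo was left out (0 without embryo 3, where 976 genes had an unadjusted p under 0.05, 22 without embryo 2 and 381 without embryo 1); the cause was not tested. Of the companion genes, 3 were called by DESeq2 and 0 to 2 when an embryo was left out. The log2 ratio of maternal over paternal counts changed sign for Actc1 (-0.049 with TMM, -0.061 with DESeq2 size factors) and Nkx2-5 (-0.16 and -0.17), and when an embryo was left out it ranged from -0.20 to 0.10 for Myl7, from -0.046 to 0.55 for Ttn and from -0.17 to 0.17 for Nkx2-5. The median share over members was 51.9% and became 48.5% relative to each embryo's autosomal median, and 51.3% to 52.8% when an embryo was left out. The mean summed level was 879 CPM, 140 CPM without embryo 1, 1280 CPM without embryo 2 and 1218 CPM without embryo 3. Paternal counts alone gave 22.9-fold for embryo 1 over embryo 2, 1.96-fold for embryo 3 over embryo 2 and 4 members above 2-fold there.

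In FGOs, 128 genes were called with the replicate block and 110 against wild-type replicates 1 to 8 only, from 260. The replicate block took Myl4 to 0.27 (edgeR adjusted p = 0.599). The numbers do not pair the oocytes: deviations of same-numbered libraries correlated by over 0.1 in 2 of 8 pairs (-0.517 to 0.471). Few counts of the members limit the shares in embryo 2, where the 10 genes had 669 allelic counts in all and 5 of them had at least 10. A filter on the mean of embryos 2 and 3 alone, added after seeing the data, kept 7 members, all 7 more than 2-fold higher in embryo 1 in both comparisons.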
